A study of Mus musculus with 14 samples.

Results

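The T cell and cytotoxic effector genes are 10 named genes that mark T lymphocytes or arm their killing granules, and they were followed in mouse melanomas grown from cells that resisted or responded to radiation with CTLA4 blockade. They are Cd3d, Cd3e and Cd3g, which encode chains of the CD3 complex, Cd4, Cd8a and Cd8b1, which encode the coreceptors, and Gzma, Gzmb, Prf1 and Nkg7 of the cytotoxic granule. The members were chosen by symbol: a probe set entered if its single gene symbol was a member, and no filter on dim genes was set. All 10 had exactly 1 such probe set on each array design, out of 22180 genes with a single symbol on the first design and 19938 on the second.

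Total RNA was measured in 14 tumours of B16-F10, a pigmented melanoma line of C57BL/6 mice. The groups were 7 tumours of the resistant subline Res 499, 2 of the resistant subline Res 177 and 5 of the sensitive control. The resistant sublines were cultured from unirradiated tumours that withstood combined treatment or grew back after it, and the tumours profiled here were grown from these sublines or from sensitive cells. In the treatment schedule of the labels, cells were placed under the skin of the right flank on day 0 and of the left on day 2, the right side received 20 Gy on day 8, and mice received the antibody 9H10 against CTLA4 on days 5, 8 and on day 11. Each resistant group is a single subline, all groups share the B16-F10 background, and the labels say neither whether the profiled tumours were themselves treated nor whether they came from separate mice. Each limma p-value below therefore sets a difference against the scatter of these tumours, and part of that scatter may be technical. It does not reach beyond these sublines. The first array design held 7 Res 499, 1 Res 177 and 4 control tumours, and the second, normalized separately, held 1 Res 177 and 1 control tumour. All levels are log2 expression values. Across the 12 arrays of the first design array medians ran from 5.70 to 5.80, and the means of the 7 melanoma cell markers ran from 10.86 (Sox10) to 13.68 (Dct) in Res 499 and from 11.12 (Sox10) to 13.73 (Dct) in control tumours. A whole tumour holds melanoma, stromal and immune cells, so fewer cells of a type and less RNA per cell cannot be told apart.

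A T cell recognises peptide on MHC molecules through its antigen receptor, and the CD3 chains pass the signal into the cell. CD8, a pair of alpha and beta chains on most cytotoxic T cells, binds MHC class I, and CD4 on helper and regulatory T cells binds MHC class II. On contact with a target, a cytotoxic T cell or natural killer (NK) cell releases granules in which perforin makes pores and granzymes enter to start cell death. Nkg7, a granule membrane protein, takes part in granule release. Killing of this kind is a main route by which checkpoint blockade acts on tumours.

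The promoters of the 4 granule genes are shown because they were the windows among those found for the members that held the Runx core, and they were chosen after these matches were seen. The windows run from 250 bases before the start site to 50 after it, and RefSeq windows (GRCm38.p6) were found for 8 of the 10 members. Capitals mark each copy of TGTGGT, the core letters bound by Runx factors, or of its reverse complement ACCACA. The windows are chr13:113100932-113101231 on the minus strand for Gzma, chr14:56262285-56262584 on the minus strand for Gzmb, chr10:61297586-61297885 on the plus strand for Prf1 and chr7:43436888-43437187 on the plus strand for Nkg7.
Gzma: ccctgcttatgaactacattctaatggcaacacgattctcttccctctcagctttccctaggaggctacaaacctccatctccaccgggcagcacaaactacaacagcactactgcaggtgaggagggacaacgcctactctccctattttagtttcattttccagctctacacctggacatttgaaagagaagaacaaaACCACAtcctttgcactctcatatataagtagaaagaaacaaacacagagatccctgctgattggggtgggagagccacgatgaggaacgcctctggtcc
Gzmb: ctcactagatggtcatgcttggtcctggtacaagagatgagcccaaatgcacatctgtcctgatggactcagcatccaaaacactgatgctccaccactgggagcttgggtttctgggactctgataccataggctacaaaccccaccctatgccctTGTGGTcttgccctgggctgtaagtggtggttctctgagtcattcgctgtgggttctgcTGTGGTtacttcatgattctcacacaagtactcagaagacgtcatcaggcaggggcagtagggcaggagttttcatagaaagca
Prf1: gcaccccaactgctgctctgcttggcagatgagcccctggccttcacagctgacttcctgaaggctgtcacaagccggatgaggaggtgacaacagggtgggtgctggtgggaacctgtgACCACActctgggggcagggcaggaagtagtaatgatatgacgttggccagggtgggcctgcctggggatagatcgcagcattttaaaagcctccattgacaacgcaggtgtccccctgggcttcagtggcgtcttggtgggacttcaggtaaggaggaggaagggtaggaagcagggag
Nkg7: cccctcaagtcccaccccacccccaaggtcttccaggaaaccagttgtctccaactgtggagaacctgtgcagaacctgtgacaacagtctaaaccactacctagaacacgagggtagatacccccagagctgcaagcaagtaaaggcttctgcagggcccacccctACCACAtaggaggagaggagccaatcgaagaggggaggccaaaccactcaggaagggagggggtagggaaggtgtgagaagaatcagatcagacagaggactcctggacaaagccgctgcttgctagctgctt
Gzmb held 2 copies of the Runx core and Gzma, Prf1 and Nkg7 held 1 each, none of them overlapping another motif searched. The core was in 4 of the 8 members' windows, none of them a CD3 or Cd8a window, and in 16.8% of all 32851 windows. The T-box motif GGTGTG was in 2 of the 8 windows against 19.0% of all windows, the AP-1 motif TGANTCA in 1 against 7.81%, the ETS core GGAA in 7 against 96.0%, the E-box CANNTG in 8 against 72.3%, and TATAAA in 0 against 13.6%. Both strands were read. A match describes letters, not a bound site.

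The comparison of Res 499 with control tumours asks whether tumours of cells that escaped therapy carried more or less T cell and killing-granule RNA. None of the 10 genes passed the test. All 10 differences were above 0, the widest in Cd3g at 0.90 and Nkg7 at 0.62, and between 1 and 4 of the 7 Res 499 tumours lay above every control, depending on the gene. The genes were tested with limma over all 22180 genes (Benjamini-Hochberg adjustment, threshold 0.05), which called 0.212% of genes in either direction and 0 of the 10. At an unadjusted p under 0.05 it called 0 of the 10 against 11.1% of all genes. The median difference of the 10 genes was 0.28 against 0.01 over all genes, and differences above 0 made up 52.3% of all genes. The Res 499 and control ranges overlapped for all 10 genes, and they did not overlap for 1.9% of all genes (0.996% with Res 499 higher). These 10 genes share the same tumours, so their common direction is a single description and not 10 separate observations.

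**Figure D1:**
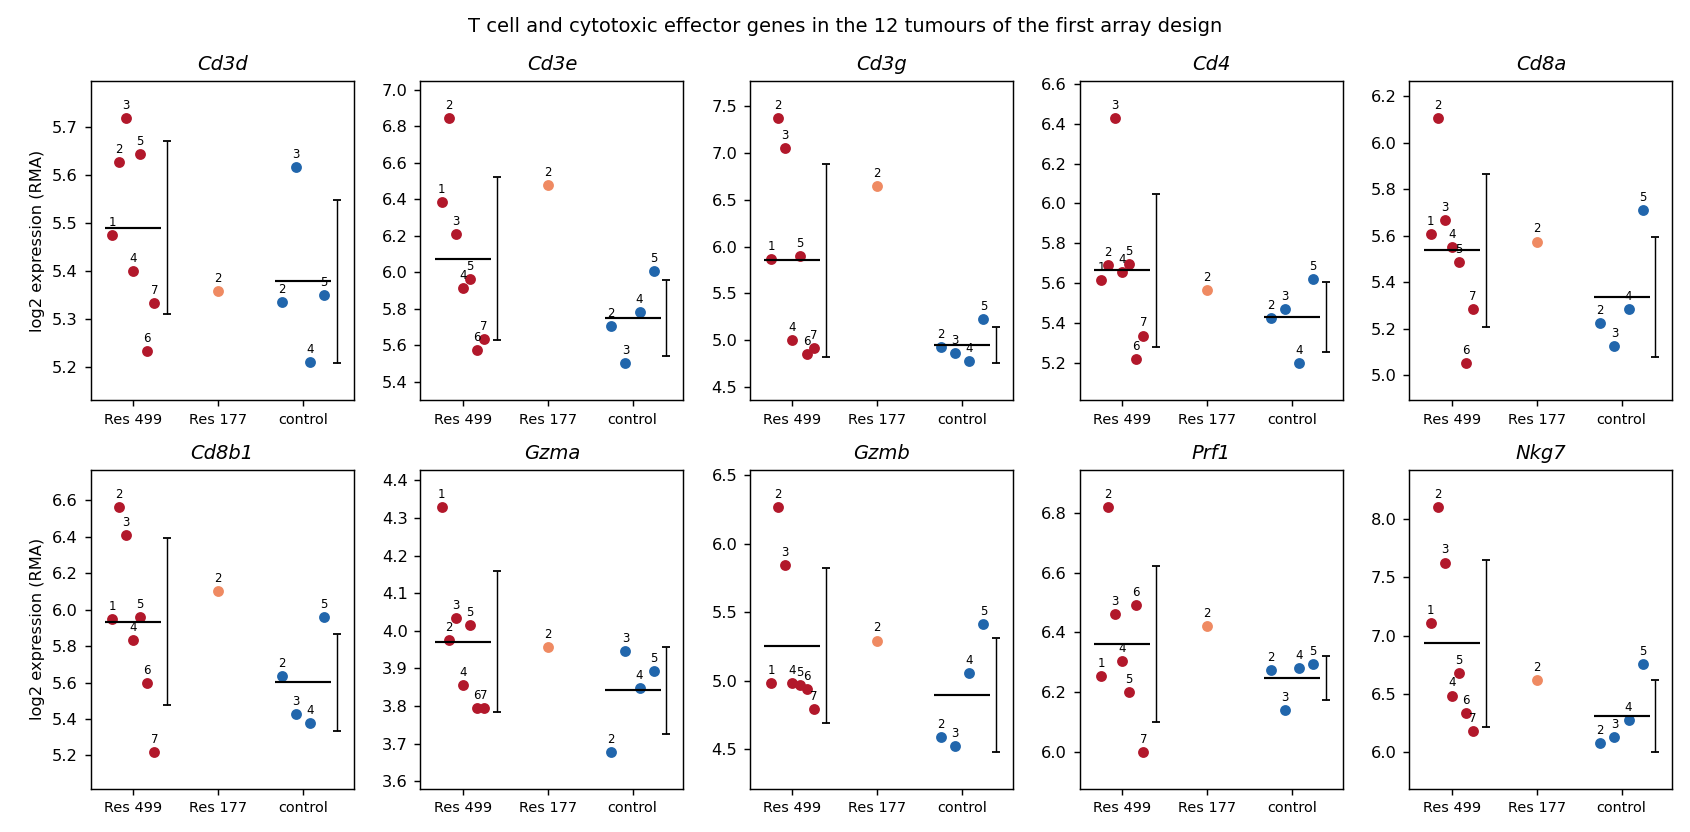
Log2 expression of each gene (y axes, scales differ between panels) in 7 Res 499, 1 Res 177 and 4 control tumours, with each point a tumour labelled by its replicate number, a line at the mean and a bar beside it for ± 1 SD. Res 499 replicate 2 is the highest Res 499 tumour for 7 of the 10 genes, and groups overlap in every panel for Res 499 against control.

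Among the CD3 chains, Cd3g, the gamma chain that pairs with CD3 epsilon, varied most. It was at 4.85 in the lowest Res 499 tumour, 5.87 in the median one and 7.38 in the highest, at 6.65 in the Res 177 tumour, and at 4.93, 4.86, 4.78 and 5.23 in control replicates 2 to 5. Thus 4 of 7 Res 499 tumours (replicates 1, 2, 3 and 5) lay above every control and the other 3 lay within the control range. The mean was 5.85 ± 1.03 (SD, n = 7) in Res 499 and 4.95 ± 0.20 (SD, n = 4) in control, a difference of 0.90 (SE 0.46, limma adjusted p = 0.507) with a 95% interval from -0.09 to 1.90.

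Cd3e, the epsilon chain that pairs with both gamma and delta, varied over a smaller range. It ran from 5.57 through a median of 5.96 to 6.85 in Res 499, was 6.48 in Res 177, and was 5.71, 5.50, 5.78 and 6.01 in control replicates 2 to 5. Res 499 replicates 1, 2 and 3 exceeded every control, and replicate 5, which did so for Cd3g, lay below control replicate 5. Cd3d, the delta chain, barely moved: it ran from 5.23 through 5.48 to 5.72 in Res 499, was 5.36 in Res 177, and was 5.34, 5.62, 5.21 and 5.35 in control. Its difference was 0.11 (SE 0.10, limma adjusted p = 0.769) with a 95% interval from -0.11 to 0.34. Cd3g and Cd3d are neighbours on chromosome 9 and are read in opposite directions. Values of different probe sets are not on a common scale, so only the differences between tumours, not the levels, are set side by side here.

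The coreceptor genes were spread over tumours in 2 patterns. Cd8b1, the CD8 beta chain found on conventional cytotoxic T cells, ran from 5.22 through 5.95 to 6.57 in Res 499, was 6.10 in Res 177, and was 5.64, 5.43, 5.38 and 5.96 in control replicates 2 to 5. Cd8a, the alpha chain, which some dendritic cells also make, ran from 5.05 through 5.55 to 6.11 in Res 499, was 5.58 in Res 177, and was 5.22, 5.13, 5.29 and 5.71 in control. For Cd8a a single Res 499 tumour, replicate 2, was above every control, and control replicate 5 was above the other 6 Res 499 tumours. The Cd8b1 difference was 0.33 (SE 0.22, limma adjusted p = 0.646, 95% interval -0.15 to 0.81) and that of Cd8a had an interval from -0.17 to 0.57.

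Cd4 followed another tumour. It ran from 5.22 through 5.66 to 6.43 in Res 499, was 5.56 in Res 177, and was 5.42, 5.47, 5.20 and 5.62 in control replicates 2 to 5. The value of 6.43 belonged to Res 499 replicate 3 and stood 1.002 above the control mean, while the other 6 Res 499 tumours lay between -0.21 and 0.27 of it. The Cd4 difference between the groups was 0.23 (SE 0.18, limma adjusted p = 0.705, 95% interval -0.16 to 0.63).

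Of the granule genes, Nkg7 and Gzmb had the wider ranges and the same 2 tumours at the top. Nkg7 ran from 6.19 through 6.68 to 8.11 in Res 499, was 6.62 in Res 177, and was 6.08, 6.13, 6.28 and 6.76 in control replicates 2 to 5. Res 499 replicates 1, 2 and 3 exceeded every control. The mean was 6.93 ± 0.72 (SD, n = 7) in Res 499 and 6.31 ± 0.31 (SD, n = 4) in control, a difference of 0.62 (SE 0.33, limma adjusted p = 0.533, 95% interval -0.10 to 1.34).

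Gzmb, the granzyme that cleaves after aspartate and activates caspases, ran from 4.79 through 4.98 to 6.27 in Res 499, was 5.29 in Res 177, and was 4.59, 4.53, 5.05 and 5.41 in control replicates 2 to 5. Res 499 replicates 2 and 3, at 6.27 and 5.84, were above every control, and the other 5 Res 499 tumours lay within the control range. The difference was 0.36 (SE 0.28, limma adjusted p = 0.707, 95% interval -0.26 to 0.98). Granzyme genes of the Gzmb cluster resemble each other in sequence, so probes shared between them could blur this value.

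Prf1, which encodes perforin, ran from 6.00 through 6.30 to 6.82 in Res 499, was 6.42 in Res 177, and was 6.27, 6.14, 6.28 and 6.30 in control replicates 2 to 5. The Res 499 tumours were spread on both sides of a narrow control range, with replicates 2, 3, 4 and 6 above it and replicate 7 below it. The Prf1 difference was 0.11 (SE 0.12, limma adjusted p = 0.814). A probe set listed for both Prf1 and the mitochondrial gene COX2 was not used.

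Gzma, a granzyme of cytotoxic T and NK cells, was the dimmest member, with a mean above that of 6.69% of all genes, and its levels differed little between tumours. It ran from 3.79 through 3.98 to 4.33 in Res 499, was 3.96 in Res 177, and was 3.68, 3.95, 3.85 and 3.89 in control replicates 2 to 5. The Gzma difference was 0.13 (SE 0.10, limma adjusted p = 0.695, 95% interval -0.08 to 0.34). The other 9 members had mean levels above those of 28.7% to 54.0% of genes. No detection call comes with these values, so how far each gene stood above background was not measured, and near background a log2 difference understates the change in RNA.

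The Res 499 tumours differed among themselves in these genes. All 10 genes were above every control in Res 499 replicate 2, as were 17.8% of all genes in that tumour, and 9 of 10 in replicate 3 against 18.8% of all genes. The count was 4 of 10 in replicate 1 (24.1% of all genes) and in replicate 5 (31% of all genes), and 2 of 10 in replicate 4 (24.3% of all genes). It was 1 of 10 in replicate 6 (22.6% of all genes) and 0 of 10 in replicate 7 (23.1% of all genes). Below every control lay 1 gene in replicate 6 (20.8% of all genes) and 2 in replicate 7 (20.3% of all genes). Among Res 499 tumours replicate 2 was the highest for 7 genes, replicate 3 for Cd3d and Cd4, and replicate 1 for Gzma, while replicate 6 was the lowest for 6 genes and replicate 7 for 4. Among control tumours replicate 5 was the highest for 8 genes, all but Cd3d and Gzma. The SD over Res 499 tumours exceeded that over control tumours for 10 of 10 genes, with a median ratio of 1.93 against 1.17 over all genes, of which 59.8% had a ratio above 1. The ratio was widest for Cd3g at 5.28 and Prf1 at 3.603, and these ratios are given as descriptions with no test. With replicates 2 and 3 both left out, a choice made after seeing the data, the Res 499 differences were 0.36 for Cd3g, 0.25 for Nkg7, 0.14 for Cd3e, 0.12 for Gzma, 0.11 for Cd8b1, 0.08 for Cd4, 0.06 for Cd8a, 0.04 for Gzmb and Cd3d and 0.0027 for Prf1, and none of the 10 passed. Leaving out a single tumour moved the difference by over 1.5 times for 7 of the 10 genes, all but Cd3g, Cd8b1 and Nkg7. Without Res 499 replicate 2 it was 0.038 for Prf1, 0.20 for Cd3e, 0.11 for Cd8a and 0.19 for Gzmb. Without replicate 3 it was 0.11 for Cd4 and 0.074 for Cd3d, without replicate 1 it was 0.070 for Gzma, and without replicate 7 it was 0.18 for Prf1. Without control replicate 2 it was 0.075 for Gzma, and without control replicate 3 it was 0.19 for Cd3d, 0.13 for Cd8a and 0.24 for Gzmb. Without control replicate 4 it was 0.056 for Cd3d, and without control replicate 5 it was 0.33 for Cd8a.

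**Figure D2:**
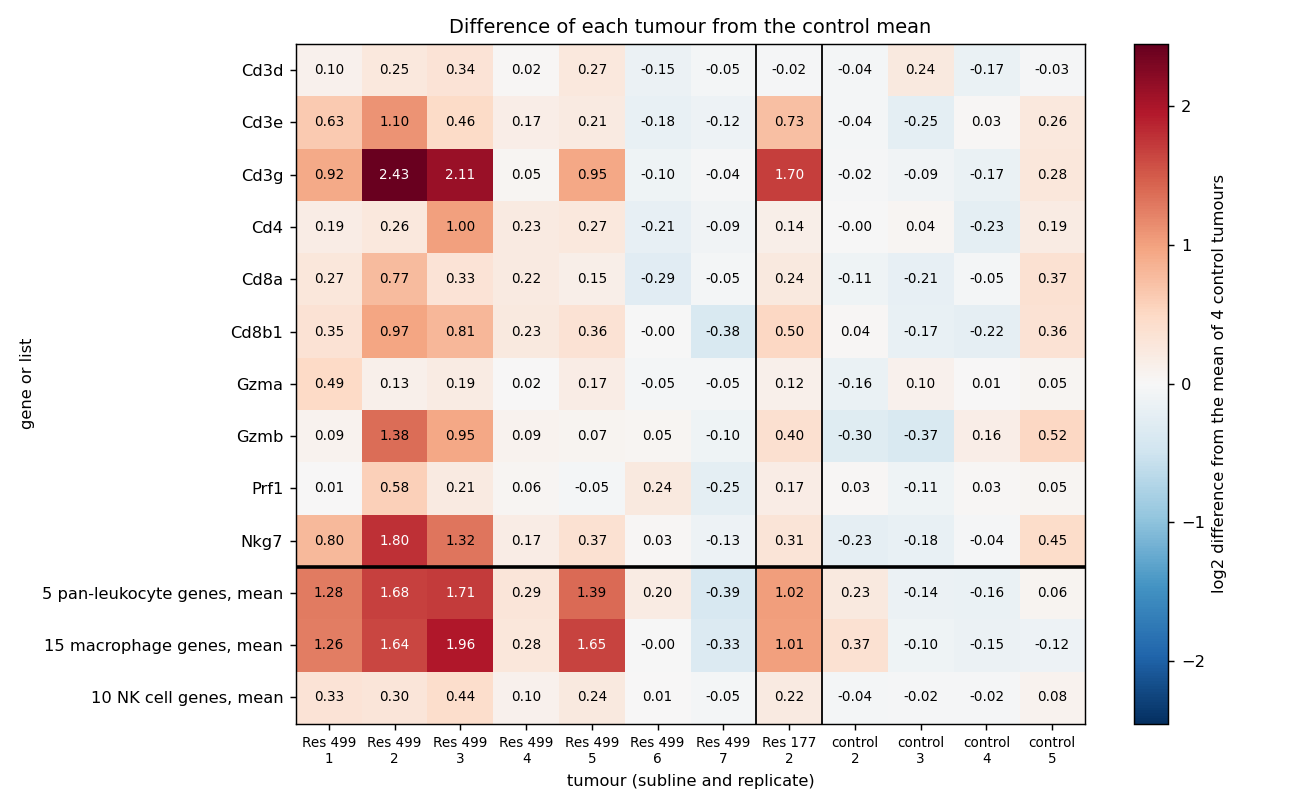
Log2 difference of each tumour (columns, by subline and replicate) from the mean of the 4 control tumours for the 10 genes and for the means of 3 marker lists (rows below the line), with red above and blue below the control mean. Cd3g stands 2.43 and 2.11 above the control mean in Res 499 replicates 2 and 3, and the leukocyte and macrophage rows are also high in Res 499 replicates 1 and 5 and in the Res 177 tumour.

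Markers of leukocytes as a whole were set beside these genes. Leukocyte content was the mean of 5 genes of most white blood cells, T cells included (Ptprc, Cd53, Laptm5, Coro1a and Cd52). It was 1.28, 1.68, 1.71, 0.29, 1.39, 0.20 and -0.39 above the control mean in Res 499 replicates 1 to 7, 1.02 in Res 177, and between -0.16 and 0.23 in control tumours. Of the 5 genes none passed the limma test and 3 had an unadjusted p under 0.05. The 15 macrophage and monocyte markers averaged from -0.33 to 1.96 in Res 499 and from -0.15 to 0.37 in control tumours, with all 15 differences above 0, none past the test and 7 with an unadjusted p under 0.05. The 10 NK cell markers, which include Gzma, averaged from -0.05 to 0.44 in Res 499 and from -0.04 to 0.08 in control, with 8 of 10 differences above 0, none past the test and 1 with an unadjusted p under 0.05. No marker of these lists can be called at 0 on this scale.

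Tumours of high leukocyte content differed in their T cell and granule genes. Res 499 replicate 5 had a leukocyte content 1.39 above the control mean and replicate 2 one 1.68 above it, and their macrophage means were 1.65 and 1.64 above it. In 7 of the 10 genes replicate 5 was the lower of these tumours. Its Gzmb stood 0.07 above the control mean against 1.38 in replicate 2, its Nkg7 0.37 against 1.80 and its Cd3g 0.95 against 2.43. The other 3 genes were level in both tumours or slightly higher in replicate 5, with Cd3d at 0.27 against 0.25, Cd4 at 0.27 against 0.26 and Gzma at 0.17 against 0.13. Control replicate 5, the highest control for 8 of the 10 genes, had a leukocyte content of 6.31, and control replicate 2, with the highest leukocyte content of its group at 6.48, had the lowest Nkg7. The tumours fell into 2 clusters of leukocyte content, 7 at or below 6.55 (3 Res 499 and 4 control) and 5 at or above 7.27, so no correlation over all 12 is given, and the higher cluster is too small for one.

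Within the 7 tumours of lower leukocyte content, 10 relations were computed and none passed. These tumours were picked by leukocyte content and span 5.87 to 6.55 of it, against 5.87 to 7.96 over the first design. Res 499 replicates 2 and 3 are not among them. A weak relation over this narrow part therefore cannot speak for the whole range. Cd8b1 had a Pearson r of 0.79 (exact permutation p = 0.0397, adjusted p = 0.198 over 10 relations) and a Spearman rho of 0.79 (exact permutation p = 0.0480, adjusted p = 0.480). Prf1 had a Pearson r of 0.78 (exact permutation p = 0.0383, adjusted p = 0.198) and a Spearman rho of 0.64 (exact permutation p = 0.139, adjusted p = 0.694). Without the 2 tumours farthest from the median leukocyte content r was 0.54 for Cd8b1 and 0.62 for Prf1. The other 8 genes had an r between -0.28 and 0.39.

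With leukocyte content as a covariate in the same limma fit, the Res 499 differences shrank towards 0 and 9 of 10 changed sign. They were -0.06 for Cd3g (95% interval -0.64 to 0.52), -0.02 for Nkg7 (-0.55 to 0.52), -0.05 for Gzmb (-0.66 to 0.56) and -0.12 for Cd8b1 (-0.43 to 0.18), and Gzma kept its sign at 0.01. None of the 10 passed in this fit. Leukocyte content and subline overlap in these tumours. T cells also make the genes of the covariate, so this fit can remove part of a T cell difference. The part of leukocyte content in the differences was not tested further.

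**Figure D3:**
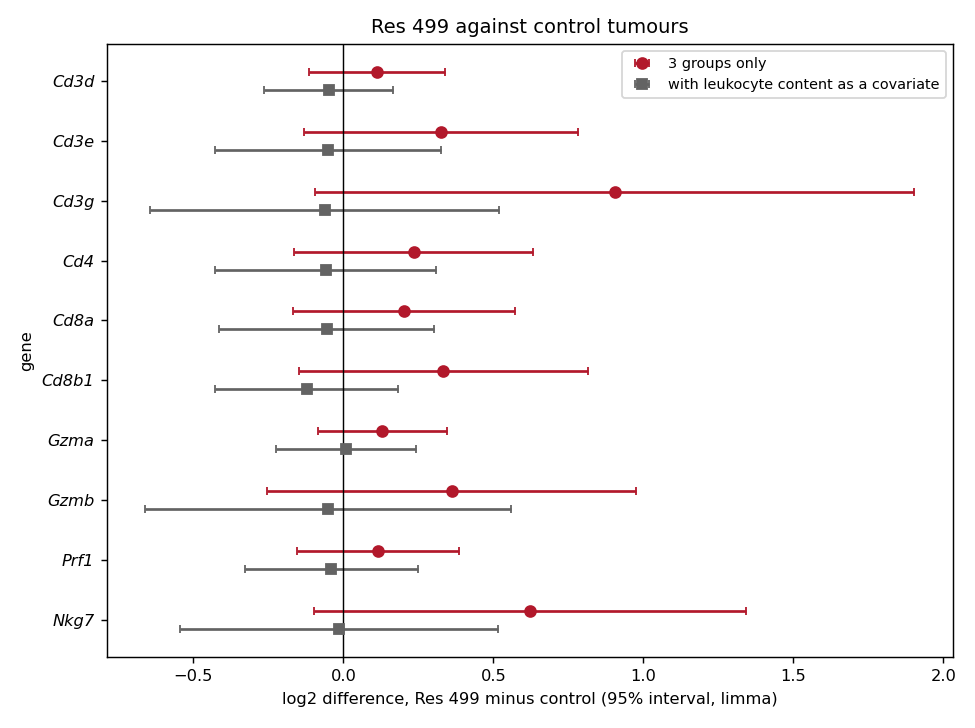
Log2 difference of Res 499 minus control tumours (x axis) with 95% intervals from limma for each gene (y axis), from the fit of the 3 groups (circles) and with leukocyte content as a covariate (squares). Every circle interval includes 0, and with the covariate the points lie between -0.12 and 0.01.

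**Figure D4:**
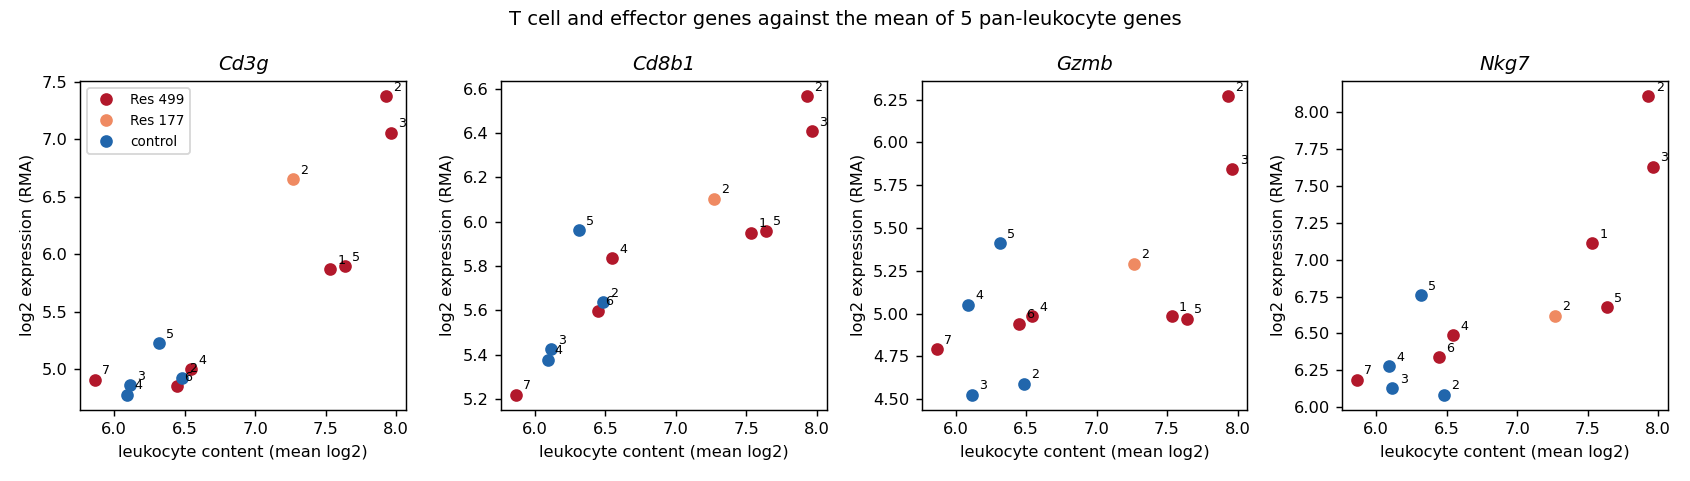
Log2 expression of Cd3g, Cd8b1, Gzmb and Nkg7 (y axes) against leukocyte content (x axes, mean log2 value of 5 pan-leukocyte genes), with each point a tumour labelled by replicate and coloured by subline. Res 499 replicates 2 and 3 are at the upper right of each panel, whereas Gzmb of Res 499 replicates 1 and 5 lies level with that of tumours with lower leukocyte content.

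In the Res 177 tumour of the first design 9 of the 10 genes were above the control mean, as were 54% of all genes, and none passed the test. With a single tumour, its spread is assumed to be that of the other groups. Cd3g was at 6.65 against 4.78 to 5.23 in control tumours, a difference of 1.70 (SE 0.82, limma adjusted p = 0.9998, 95% interval -0.08 to 3.48), and Cd3e was at 6.48 against 5.50 to 6.01, a difference of 0.73 (SE 0.38, limma adjusted p = 0.9998). Cd8b1, Gzma and Prf1 also lay above every control, which makes 5 of 10 genes against 23.2% of all genes, while Cd3d differed by -0.02. Limma called 0.455% of all genes in this comparison and 0 of the 10. At an unadjusted p under 0.05 the counts were 0 of the 10 and 4.78% of all genes. Cd3g had the widest difference of the 10 in this tumour. The granule genes differed by 0.40 (Gzmb), 0.31 (Nkg7), 0.17 (Prf1) and 0.12 (Gzma). Of the coreceptor genes Cd8b1 differed by 0.50, Cd8a by 0.24 and Cd4 by 0.14.

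Res 499 was also set directly against the Res 177 tumour. None of the 10 genes passed the limma test, against 0.509% of all genes, and at an unadjusted p under 0.05 the counts were 0 of the 10 and 4.05% of all genes. The differences ran from -0.80 for Cd3g (SE 0.78) to 0.31 for Nkg7 (SE 0.56).

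The second design held a further pair of tumours, 1 Res 177 and 1 control, with no test possible. No gene of the 10 reached a log2 difference of 1, a size reached by 1.27% of 19938 genes, and 8 of the 10 were above 0 against 57.5% of all genes. Nkg7 was at 6.08 in the Res 177 tumour and 5.47 in the control tumour, a difference of 0.61. Cd3e was at 7.34 in the Res 177 tumour and 7.004 in the control tumour (difference 0.34), and Gzmb was at 5.82 in Res 177 and 5.50 in control (difference 0.32). Cd3g was at 5.55 in Res 177 and 5.32 in control, and Cd8b1 at 6.18 in Res 177 and 5.95 in control, each a difference of 0.23. Prf1 differed by 0.16, Cd8a by 0.10, Cd3d by 0.04, Gzma by -0.02 and Cd4 by -0.03. In the same pair the 5 pan-leukocyte genes differed by 0.63 to 2.12, with Cd53 at 9.10 in the Res 177 tumour and 6.97 in the control tumour. The Cd3g difference was thus 1.70 in the first pair of groups and 0.23 in the second, on probe sets and normalizations that differ.

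With both resistant sublines pooled by the response label, 8 resistant tumours were compared with 4 sensitive ones, of which 7 of the 8 were Res 499. All 10 differences were above 0 (53.4% of all genes) and none passed, against 0.325% of all genes called by limma. Cd3g alone had an unadjusted p under 0.05, as did 11.3% of all genes. Its difference was 1.004 (SE 0.45, unadjusted p = 0.0430, limma adjusted p = 0.421), with 5 of 8 resistant tumours above every sensitive one. Nkg7 differed by 0.58 (SE 0.31, limma adjusted p = 0.531).

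Genes of T cell signalling and killing were counted from fixed lists in the Res 499 comparison. The lists are not free of the members. The granzymes include Gzma and Gzmb, and the genes of granule assembly, release and protection include Prf1 and Nkg7. Of 23 measured T cell receptor signalling genes 1 rose (0.0992% of all genes rose) and 0 fell, with a median difference of 0.14. In that list 6 of 23 had an unadjusted p under 0.05, against 11.1% of all genes. Of these, Ptprc differed by 1.16, Prkcq by 0.90, Icos by 0.29, Sit1 by 0.26 and Cd6 by 0.14. Nfatc1, a transcription factor below the receptor, was the only one of them below 0, at -0.39 (SE 0.13, limma adjusted p = 0.269). The gene that rose was Prkcq, the protein kinase C theta that acts below the T cell receptor, at 9.04 ± 0.22 (SD, n = 7) in Res 499 against 8.14 ± 0.19 (SD, n = 4) in control (difference 0.90, SE 0.12, limma adjusted p = 0.0120). Cd3e, Cd3g and the other CD3 genes did not pass in the same tumours, and which cells carried the Prkcq RNA was not tested. The Prkcq call comes from the main fit alone. It was not followed through the alternative settings, in which the count over all genes moved.

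None of the 9 measured granzymes passed, and their median was 0.05. None of 13 T cell transcription and identity genes passed (median 0.11), where Il7r, the interleukin 7 receptor, differed by 1.05 (SE 0.42, limma adjusted p = 0.365). Of 14 genes of granule assembly, release and protection 0 passed (median 0.17, 13 above 0). Serpinb9, an inhibitor of granzyme B, differed by 0.79 (SE 0.23, limma adjusted p = 0.205) and Srgn, the granule proteoglycan serglycin, by 0.78 (SE 0.28, limma adjusted p = 0.310). None passed among 8 death ligands and effector cytokines (median 0.07), 8 homing receptors (median 0.24) or 5 partners of class I recognition on target cells (median 0.41). Tnfsf10, the death ligand TRAIL, differed by 0.63 and the integrin gene Itgal by 0.45. Tap2, a chain of the peptide transporter that loads class I molecules, differed by 0.65. At an unadjusted p under 0.05, which 11.1% of all genes had, limma counted 0 of 9 granzymes, 2 of 13 transcription and identity genes, 4 of 14 granule genes, 1 of 8 death ligands and cytokines, 4 of 8 homing receptors and 1 of 5 class I partners.

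Genes with levels like those of Cd3e and Gzmb over the 12 tumours were searched among 14609 genes. The members themselves and the lowest 25% of genes by mean were left out of this search. The nearest to Cd3e were Tnfrsf14 (r = 0.95), Tlr9 (0.94), Rnf19b (0.94), Gbp10 (0.94) and S1pr1 (0.94). For Gzmb they were Uba7 (r = 0.93), P2ry14 (0.92), H2-DMa (0.90), Il18bp (0.89) and Rnase6 (0.89). Of the members left out, the nearest to Gzmb was Nkg7 (r = 0.92) and the nearest to Cd3e was Cd8a (r = 0.91). These values span both clusters of leukocyte content and describe these 12 arrays.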

How the data were processed

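Total RNA was profiled on 2 array designs. The deposited log2 values, 1 for each probe set in each tumour, were made by the authors with RMA (oligo), per the submitters' processing notes; the log2 scale was read from the values. RMA corrects background, quantile-normalizes arrays and summarises probes. The sources used here give neither versions nor a build. The designs were normalized separately and never pooled. Replicate numbers only name a tumour.

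Gene names came from the platform annotation: 23521 of 41345 probe sets of the first design had a single symbol, 1814 several and 16010 none (21789, 1621 and 12146 of 35556 on the second). Updating by Entrez number against RefSeq changed 0 symbols. A gene was represented by its probe set of highest mean. Limma 3.58.1 (R 4.3.3; lmFit, eBayes), checked on simulated data, fitted 3 groups or 2 response levels. Precision is set by tumour number; arrays have no depth. The planned correlations over 12 tumours and over the 7 Res 499 tumours alone were replaced by that within the lower leukocyte cluster. This choice was made after leukocyte content was seen.

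The members and lists were chosen with earlier results of these data known. Named genes are the members and the called or else most different genes of each list (at most 2, not all printed). The 5 nearest patterns to Cd3e and Gzmb are also named. Their search left out the members, the lowest 25% of genes by mean, predicted models and antigen receptor segments. The T cell receptor signalling genes with an unadjusted p under 0.05 are named as well. Alternatives covered dim-gene filters, probe set choice, normalization, the eBayes prior, array weights, threshold, tumours left out and leukocyte content.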

Additional observations from a re-analysis of the deposited data

Results flagged for a closer look

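Among 20 groups of values tested for a value far from the rest (10 genes in 7 Res 499 and in 4 control tumours), 2 had one, where chance gives about 1 in 20. Cd4 was at 6.43 in Res 499 replicate 3, with a gap to the next tumour of 0.607 of the group's range. In the same tumour Cd3g stood 2.11 and the macrophage marker mean 1.96 above the control mean. Prf1 was at 6.14 in control replicate 3, below the other 3 control tumours at 6.27 to 6.30, with a gap of 0.861 of a narrow range.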

How the results depend on the processing

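None of the 10 genes passed in any of the 25 alternatives of Res 499 against control (smallest adjusted p = 0.368) or the 24 of resistant against sensitive (smallest adjusted p = 0.302), and none in those of Res 177. Apart from leukocyte content as a covariate, all 230 and 220 differences of the first and the last of these comparisons stayed above 0. With that covariate the differences that changed sign were, in Res 499, -0.050 for Cd3d, -0.052 for Cd3e and Gzmb, -0.062 for Cd3g, -0.059 for Cd4, -0.056 for Cd8a, -0.12 for Cd8b1, -0.040 for Prf1 and -0.015 for Nkg7; in Res 177, -0.20 for Cd4, -0.057 for Cd8a, -0.023 for Cd8b1 and Gzma, -0.078 for Gzmb, -0.0051 for Prf1 and -0.43 for Nkg7; and in the pooled comparison, -0.065 for Cd3d, -0.017 for Cd3e, -0.073 for Cd4, -0.056 for Cd8a, -0.11 for Cd8b1, -0.054 for Gzmb, -0.037 for Prf1 and -0.057 for Nkg7. The Cd3d difference in Res 177 was 0.0062 with array weights and ran from -0.075 to 0.060 with each tumour left out. With Ptprc alone as leukocyte content r changed sign to -0.0025 for Cd3e, -0.17 for Cd8a, -0.26 for Gzmb and -0.11 for Nkg7. In that setting r was 0.51 for Cd8b1 (exact permutation p = 0.243) and 0.62 for Prf1 (exact permutation p = 0.146). With each array centred on its median r was 0.75 for Cd8b1 (exact permutation p = 0.0552) and 0.72 for Prf1 (exact permutation p = 0.0681).

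The count over all genes moved more. For Res 499 it was 47, and 84 with the lowest 50% of genes left out, 268 with array weights, 26 with leukocyte content, 200 at an adjusted p under 0.1, 100 without Res 499 replicates 2 and 3, and 6 (without control replicate 4) to 181 (without Res 499 replicate 2) with each tumour left out. Among these it was 15 to 24 without Res 499 replicate 1, 3, 4, 6 or 7 or control replicate 2 or 3, and 77 without control replicate 5. For the pooled comparison it was 72, and 115, 45 with arrays centred on their median, 285 with array weights, 35 with leukocyte content, 223 at 0.1, and 8 to 130 with each tumour left out, at the same 2 tumours. For Res 177 it was 101, and 35 and 2 with the lowest 25% and 50% of genes left out. The cause was not tested, except that the dim-gene filters remove genes. With the lowest 25% left out Gzma was not tested, and with the lowest 50% only Nkg7 was. Each member has 1 probe set, so probe set choices change no member's value. No paired analysis was possible because the replicate numbers follow the order of deposit. The arrays give no detection call, which limits the dim members most.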

Other observations

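Markers of further immune cells were counted in the same tumours, Res 499 against control, and none passed the limma test over all genes in any of the lists named here. Of 7 neutrophil markers 7 were above 0 with a median difference of 0.18, of 7 dendritic cell markers 6 (median 0.18), of 6 mast cell and basophil markers 5 (median 0.13), of 5 B cell markers 4 (median 0.07), of 4 plasma cell markers 3 (median 0.14), of 5 regulatory T cell markers 3 (median 0.04) and of 5 gamma delta and innate-like T cell markers 2 (median -0.02), beside 0.01 over all genes. Limma counted 3 dendritic cell markers and 1 plasma cell marker at an unadjusted p under 0.05, and 0 in the other 5 lists. Cpa3, a mast cell carboxypeptidase, averaged 5.47 ± 0.89 in the 7 Res 499 tumours and 4.78 ± 0.16 in the 4 control tumours (SD) (difference 0.69, SE 0.40, limma adjusted p = 0.571). Itgax, the integrin CD11c of dendritic cells and macrophages, averaged 6.30 ± 0.82 in the 7 Res 499 tumours and 5.63 ± 0.21 in the 4 control tumours (SD; difference 0.67, limma adjusted p = 0.550). Of 7 melanoma cell markers 4 were above 0 with a median of 0.02, none passed, and 3 had an unadjusted p under 0.05. The 5 measured T cell defining markers were the members Cd3d, Cd3e and Cd3g, already described, with Cd2 and Cd5. All 5 were above 0 with a median of 0.14, and none passed. Outside the members, Cd2 differed by 0.14 and Cd5 by 0.10.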
